A study of Mus musculus with 6 samples.

Results

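The anoctamins (TMEM16 proteins) are a family of membrane proteins with 10 mouse genes, Ano1 to Ano10. All 10 were found by symbol in a deposited table of 23029 genes, and their RNA levels are described here in 3 cell subsets taken by flow cytometry out of mouse dorsal root ganglia, where the somata of sensory neurons lie. Every animal carried GINIP+/mcherry, a GINIP allele with the mCherry reporter beside a wild-type allele, so this genotype is shared by all groups. The gates used GINIP, a partner of inhibitory G proteins, and binding of isolectin B4 (IB4). DP cells bound IB4 and were GINIP+, and the labels describe them as Mrgprd+ neurons, a class of nociceptors that serve the skin. The IB4-GINIP+ gate gave C-LTMR, the unmyelinated fibres that respond to light touch. The IB4-GINIP- gate gave DN, which is what remained. Each subset had 2 libraries (n = 2 for every mean ± SD), and no group was treated. Whether replicates are separate animals is not in the labels, so each p-value reflects the spread of these libraries alone, which may be technical.

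Anoctamins differ in what they carry across a membrane. Ano1 and Ano2 are chloride channels opened by intracellular calcium, and in nociceptors, which keep a high internal chloride concentration, Ano1 current depolarizes the cell and follows heat or activation of receptors such as that for bradykinin. Ano6 is a calcium-activated scramblase, which moves phospholipids between the leaflets of the plasma membrane and exposes phosphatidylserine. Ano3 has been described in nociceptors as a partner of a sodium-activated potassium channel that dampens excitability. Ano10 lies mainly in the endoplasmic reticulum and Ano8 at contacts between that membrane and the plasma membrane.

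The 3 subsets differed in the levels of several anoctamins (the plot of RPKM by gene and library). Ano6 was the most abundant member in C-LTMR, at 56.4 ± 6.81 RPKM, and stood at 7.51 ± 0.664 in DP and 12.5 ± 1.28 in DN. RPKM scales reads to gene length and library size, so levels can be set side by side between genes. Ano3 was highest in DP (9.70 ± 1.51) and Ano4 in C-LTMR (8.90 ± 1.28), and both were lowest in DN (0.448 ± 0.0106 and 0.541 ± 0.124). Ano1 was the reverse, with 0.835 ± 0.466 in DN and under 0.15 in each GINIP+ library. Ano10 and Ano8 were present in every library, at 18.4 to 32.5 and 1.21 to 2.82 RPKM.

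**Figure D1:**
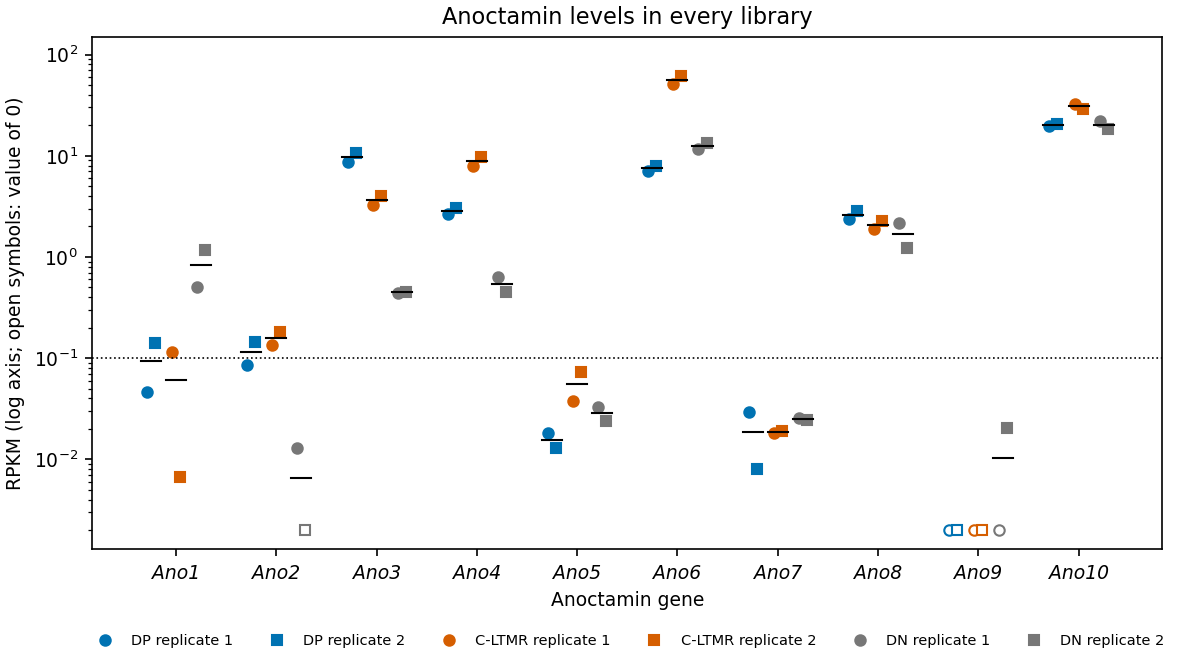
RPKM (log axis) of the 10 anoctamin genes in each of the 6 libraries, with subsets in colour, circles and squares for replicates 1 and 2, black bars for subset means, and open symbols for values of 0. The dotted line marks 0.1 RPKM, the mean level a gene needed to be tested; Ano6 reaches 61.2 in C-LTMR, while Ano5, Ano7 and Ano9 lie below the line in every library.

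The sequences before the start sites of the 4 genes that differed between subsets are shown so that their base composition can be set side by side. They are the 250 bases before the RefSeq start nearest to the start of the gene in the deposited table (GRCm38.p6), 5′ to 3′. RefSeq entries were matched for 8 of the 10 genes, and the Ano3 start lies 141 bases from that of the table. GENCODE places the 5′ ends of the minus-strand genes Ano3, Ano4 and Ano1 farther upstream, at 110950923, 89344762 and 144751974. Windows before those ends are not shown, so the windows here need not be the only promoters of these genes. Capitals mark the GC box GGGCGG, the CCAAT box CCAAT, the TATA box TATAAA, the Runx core TGTGGT and TGACG, the core of the cyclic AMP response element (CRE core), searched on both strands.
Ano3, chr2:110950245-110950494, minus strand: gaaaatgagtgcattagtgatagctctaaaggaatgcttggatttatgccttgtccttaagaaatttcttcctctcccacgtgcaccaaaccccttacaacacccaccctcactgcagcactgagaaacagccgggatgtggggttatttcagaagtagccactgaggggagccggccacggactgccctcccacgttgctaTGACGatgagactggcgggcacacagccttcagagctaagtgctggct
Ano4, chr10:89257791-89258040, minus strand: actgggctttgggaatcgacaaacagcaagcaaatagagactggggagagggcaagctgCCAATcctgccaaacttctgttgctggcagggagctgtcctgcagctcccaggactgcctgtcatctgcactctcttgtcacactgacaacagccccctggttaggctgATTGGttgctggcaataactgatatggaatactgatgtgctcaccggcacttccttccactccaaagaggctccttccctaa
Ano6, chr15:95790593-95790842, plus strand: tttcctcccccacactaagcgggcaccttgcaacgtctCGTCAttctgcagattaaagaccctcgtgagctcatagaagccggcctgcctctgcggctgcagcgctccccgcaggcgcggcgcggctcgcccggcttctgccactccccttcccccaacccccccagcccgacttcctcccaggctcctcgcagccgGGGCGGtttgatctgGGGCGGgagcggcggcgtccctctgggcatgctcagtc
Ano1, chr7:144738574-144738823, minus strand: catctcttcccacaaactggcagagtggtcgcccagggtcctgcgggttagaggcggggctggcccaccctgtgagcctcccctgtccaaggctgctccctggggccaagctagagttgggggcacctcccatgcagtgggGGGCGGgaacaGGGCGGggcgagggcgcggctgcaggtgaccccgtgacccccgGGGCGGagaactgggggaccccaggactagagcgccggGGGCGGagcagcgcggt
The Ano6 and Ano1 windows were rich in G and C (68.4% and 72%) and held 22 and 16 CpG dinucleotides, with 2 GC boxes in Ano6 and 4 in Ano1. The Ano3 and Ano4 windows had 52.4% and 53.2% G and C, 7 and 2 CpG dinucleotides and 0 GC boxes. The median over 32851 RefSeq promoter windows of the same length was 52.4% G and C and 6 CpG dinucleotides. Ano3 held 1 CRE core, as did Ano6, and Ano4 held 2 CCAAT boxes. Of all windows, 32.7% held a GC box, 33.8% a CCAAT box, 12.4% a TATA box, 14.0% the Runx core and 17.8% the CRE core, and these windows of Ano3, Ano4, Ano6 and Ano1 held 0 matches to the TATA box or the Runx core. Ano10, for which no difference was called, had a window of 65.2% G and C with 5 GC boxes and 1 Runx core. A match is a description of letters and not a binding site.

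Whole-series values that bear on these results were few. Depth was not stated, and the ratio of the 2 deposited tables to transcript lengths put the common library size near 36.0 M reads, with 72.1% of 6587 genes within 10% of that value. On the log2 scale the 2 replicates of a subset correlated over 15004 genes at 0.9943 (DP), 0.9924 (C-LTMR) and 0.9863 (DN). Markers followed the sort labels: Mrgprd was at 249 ± 40.6 RPKM in DP and 1.67 ± 0.490 in C-LTMR, Th at 1027 ± 15.1 in C-LTMR and 55.3 ± 9.14 in DP, and N28178, the gene of GINIP, at 125 ± 6.46 in DP, 145 ± 5.98 in C-LTMR, with 16.2 ± 3.43 in DN. DN held markers of non-neuronal cells. The summed RPKM of 18 satellite glia and Schwann cell markers was 3466 and 5978 in DN replicates 1 and 2, against 848 to 971 in DP and 1684 to 1898 in C-LTMR, and that of 19 vascular and fibroblast markers was 557 and 868 in DN, against 27.2 to 30.5 and 8.59 to 12.8. Of these vascular markers Des and Emcn were at 0 in at least 1 library. DN replicate 2 also had less of 19 pan-sensory-neuron genes than replicate 1 (7250 against 9612 summed RPKM). In such bulk samples, fewer cells of a type and less RNA per cell cannot be told apart.

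Summed over the 10 genes, the anoctamin level was 43.2 ± 3.49 RPKM in DP, 102 ± 6.49 in C-LTMR, with 36.3 ± 1.63 in DN. The makeup of this sum differed by subset. In DP, Ano10 gave 47.0 ± 2.33% of it, Ano3 22.4 ± 1.70% and Ano6 17.4 ± 0.127%. In C-LTMR, Ano6 alone gave 55.1 ± 3.16% and Ano10 30.3 ± 4.22%. In DN, Ano10 gave 55.7 ± 4.67% and Ano6 34.4 ± 5.08%, while Ano3 gave 1.23 ± 0.0849% and Ano4 1.48 ± 0.274%. Ano6 ranked 1705 and 1438 by RPKM among all genes of the C-LTMR libraries, and 6175 and 5913 in DP.

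**Figure D2:**
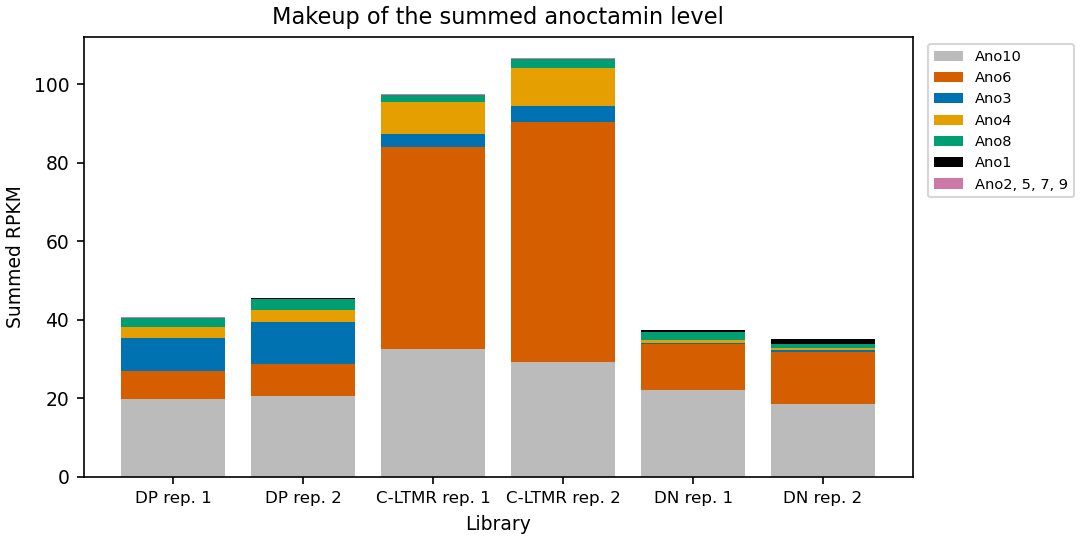
Summed RPKM of the anoctamin genes in each library, stacked by gene. The C-LTMR bars reach 97.6 and 107, and the Ano6 segment makes up 52.9% and 57.4% of them.

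Ano6 (Entrez 105722, chromosome 15, 95790843 to 95975472 on GRCm38, as for all genes here), the scramblase gene, separated C-LTMR from the other subsets. Its RPKM was 51.6 and 61.2 in the C-LTMR libraries, 7.05 and 7.98 in DP and 11.6 and 13.4 in DN. No libraries of different subsets overlapped. C-LTMR was 7.51-fold above DP (DP minus C-LTMR log2 fold change -2.89, SE 0.131, limma adjusted p = 3.95e-05) and 4.52-fold above DN (C-LTMR minus DN 2.17, SE 0.131, limma adjusted p = 2.68e-05). DP lay below DN with adjusted p = 0.00305, but its log2 fold change of -0.72 (95% confidence interval -1.03 to -0.41) was smaller than the 1 required for a call. Fold changes are on the scale of log2(RPKM + 0.1), which understates changes of low genes, and p-values are Benjamini-Hochberg (BH) adjusted over all genes tested. GENCODE places an antisense RNA gene, A130051J06Rik, opposite Ano6, with 214 shared exonic bases of 12269. A processed transcript gene, Gm49172, also lies opposite Ano6, with 122 shared exonic bases. Strand use in counting is not stated. The summed RPKM of satellite glia and Schwann cell markers was higher in C-LTMR (1684 to 1898) than in DP (848 to 971). Their median log2 fold change for DP minus C-LTMR was 0.45, in the other direction. Of these 18 markers, 3 were called higher in C-LTMR and 3 lower (8.56% and 6.54% of all genes). Immune and vascular marker sums were lowest in C-LTMR (5.86 to 10.6 and 8.59 to 12.8 summed RPKM). The part of these cell types in the Ano6 level was not tested.

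Ano3 (Entrez 228432, chromosome 2, 110658140 to 110950103) followed a gradient from DP through C-LTMR to DN. Its RPKM was 8.63 and 10.8 in DP, 3.30 and 3.99 in C-LTMR, with 0.440 and 0.455 in DN. All pairs of subsets were apart. The gene was 2.66-fold higher in DP than in C-LTMR (log2 fold change 1.39, SE 0.171, limma adjusted p = 0.00134), 21.7-fold higher in DP than in DN (4.15, limma adjusted p = 8.54e-06) and 8.14-fold higher in C-LTMR than in DN (2.77, limma adjusted p = 2.96e-05). It shares 61 exonic bases with Muc15 on the opposite strand, which was between 0.0306 and 0.178 RPKM. The summed level of 15 immune cell markers was also highest in DP, at 232 and 261 RPKM, against 5.86 and 10.6 in C-LTMR and 64.7 and 116 in DN. In DP, S100a9 alone was at 108 ± 9.36 and S100a8 at 67.5 ± 11.4. Of 13 tested, 8 were called higher and 0 lower in DP than in C-LTMR (6.54% and 8.56% of all genes). Against DN, 4 were called higher and 5 lower in DP (7.78% and 25.1%). The part of immune cells in the Ano3 level was not tested. Of these markers S100a8, S100a9, Itgam and Cd3e were at 0 in at least 1 library. With a pseudocount of 1, C-LTMR minus DN was 1.68 for Ano3 and DP minus DN was 1.33 for Ano4, both still called.

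Ano4 (Entrez 320091, chromosome 10, 88948994 to 89257790), a less studied member, had the opposite order between the GINIP+ subsets. Its RPKM was 2.68 and 3.05 in DP, 7.99 and 9.80 in C-LTMR, with 0.628 and 0.453 in DN. Here too the libraries of the 3 subsets did not overlap. C-LTMR was 3.10-fold above DP (DP minus C-LTMR log2 fold change -1.60, SE 0.194, limma adjusted p = 0.00124) and 16.4-fold above DN (C-LTMR minus DN 3.82, limma adjusted p = 1.42e-05). DP was 5.30-fold above DN (log2 fold change 2.22, limma adjusted p = 0.000117). Ano3 and Ano4 were thus both higher in each GINIP+ subset than in DN. Of 19 pan-sensory-neuron genes, 3 were called higher and 3 lower in DP than in DN (7.78% and 25.1% of all genes). In C-LTMR against DN, 4 were called higher and 2 lower (8.64% and 23.1%). The median log2 fold changes of this list were 0.35 and 0.39, beside -0.19 and -0.090 over all genes. Members of that list such as Syt1, a synaptic vesicle gene (1.91 for DP minus DN and 2.14 for C-LTMR minus DN), and Avil, a sensory neuron gene (1.87 and 1.61), were higher in both GINIP+ subsets too. The part of neuronal content in the Ano3 and Ano4 differences was not tested.

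**Figure D3:**
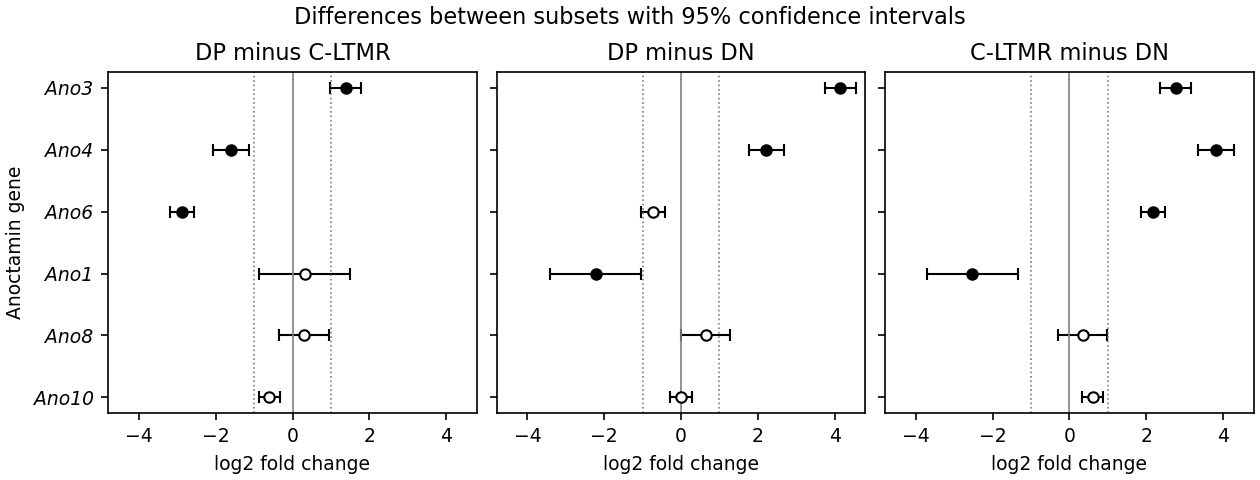
log2 fold changes of the 6 anoctamin genes tested, with 95% confidence intervals from limma, for the 3 pairs of subsets. Filled points were called (adjusted p under 0.05 and beyond the dotted lines at -1 and 1); Ano3, Ano4 and Ano6 are filled in DP minus C-LTMR, and the interval of Ano1 is the widest in each panel.

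Ano1 (Entrez 101772, chromosome 7, 144588549 to 144738592), the calcium-activated chloride channel of nociceptors, was low in both GINIP+ subsets. Its RPKM was 0.0465 and 0.142 in DP, 0.114 and 0.00673 in C-LTMR, with 0.505 and 1.16 in DN, and both DN libraries were above all others. At the common library size these values correspond to about 7.6 and 23.3 reads in DP, 18.8 and 1.1 in C-LTMR, with 83.2 and 191.6 in DN. Ano1 was higher in DN than in DP (DP minus DN log2 fold change -2.22, SE 0.495, limma adjusted p = 0.00763) and than in C-LTMR (C-LTMR minus DN -2.53, SE 0.495, limma adjusted p = 0.00448). It passed the filter on low values only through DN, so a difference was built into its being tested. DP and C-LTMR could not be told apart at this depth (log2 fold change 0.32, 95% confidence interval -0.87 to 1.498, limma adjusted p = 0.689). The call of DP against DN was lost without DN replicate 2 (-1.69, adjusted p = 0.0542), without DP replicate 1 (-1.86, adjusted p = 0.0506) and without a filter on low values (adjusted p = 0.0634). Both calls fell short of the fold criterion with a pseudocount of 1 (-0.72 and -0.77). Without DN replicate 2, C-LTMR against DN remained called (-2.001, adjusted p = 0.0357).

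Markers of several cell types were higher in DN, as Ano1 was (the plot of Ano1 beside marker sums). The summed RPKM of glial and vascular markers was 5978 and 868 in DN replicate 2, against 3466 and 557 in DN replicate 1. Single glial markers went both ways between these libraries. Mbp was at 392 and 340 RPKM and Cdh19 at 3.12 and 5.03 in DN replicates 1 and 2. Of 18 glial markers 16 were called higher in DN than in DP and 17 than in C-LTMR, where 25.1% and 23.1% of all genes were. Of 19 vascular and fibroblast markers 18 were called higher in DN in each comparison, and 1 was called lower in DN than in C-LTMR. The summed level of 12 peptidergic nociceptor and thermoreceptor markers was 9222 and 8329 in DN replicates 1 and 2, against 1351 to 1511 in DP and 1601 to 1675 in C-LTMR. Of these 12, 10 were called higher in DN than in DP and 10 than in C-LTMR (25.1% and 23.1% of all genes). Calcb was called the other way, lower in DN than in DP (DP minus DN log2 fold change 1.10). The part of each of these cell types in the Ano1 level was not tested.

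**Figure D4:**
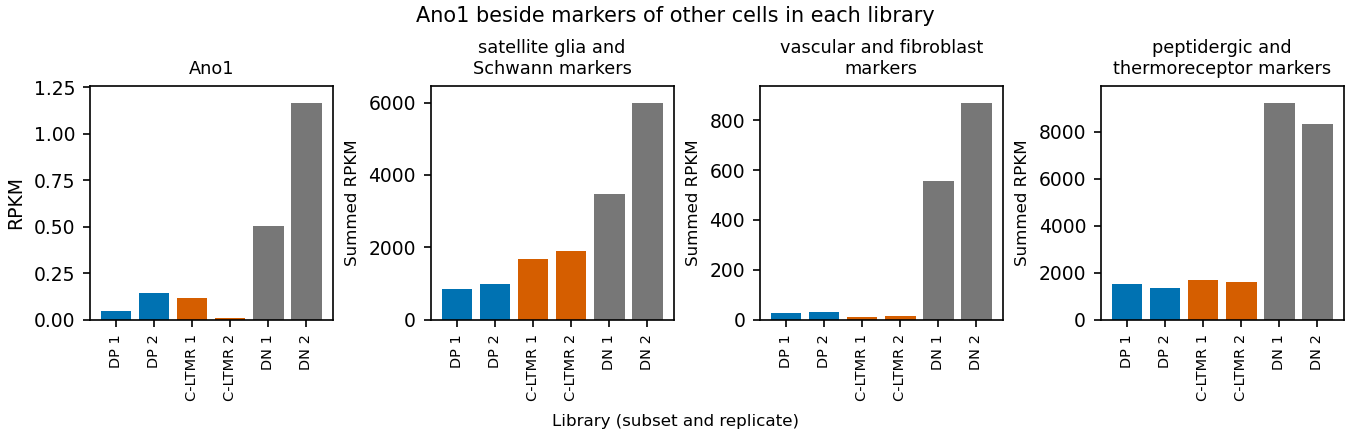
RPKM of Ano1 (left) and summed RPKM of 3 marker lists in each library, with bars starting at 0 and colours for DP, C-LTMR and DN. Ano1 and each of the 3 sums are higher in both DN libraries than in any DP or C-LTMR library.

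Ano2 (Entrez 243634, chromosome 6, 125690419 to 126040128), the channel of the same type known from olfactory neurons, showed the reverse arrangement at very low levels. Its RPKM was 0.0864 and 0.145 in DP, 0.134 and 0.180 in C-LTMR, and 0.0131 and 0 in DN. All libraries of both GINIP+ subsets were above both of DN, and those of DP and C-LTMR overlapped. The values correspond to about 12.2 and 20.5 reads in DP, 18.9 and 25.4 in C-LTMR, and 1.8 and 0 in DN. Its mean of 0.0930 RPKM was just under the 0.1 needed for testing. In a fit without that filter it was called higher than DN in DP (limma adjusted p = 0.0259, with 20.8% of all genes called) and in C-LTMR (limma adjusted p = 0.0160, with 20% called), and not between DP and C-LTMR (limma adjusted p = 0.528, with 7.72% called). Both DN libraries were under the level that 3 reads give (0.0212 RPKM), so no fold is given.

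Ano10 (Entrez 102566, chromosome 9, 122175879 to 122294374) was the member with the most even high level. Its RPKM was 19.8 and 20.7 in DP, 32.5 and 29.1 in C-LTMR, with 22.1 and 18.4 in DN, and DP and DN overlapped. The interval of the DP minus DN difference was narrow (log2 fold change 0.0012, 95% confidence interval -0.28 to 0.28, limma adjusted p = 0.993). C-LTMR lay 1.52-fold above both DP (DP minus C-LTMR -0.60, limma adjusted p = 0.00922) and DN (C-LTMR minus DN 0.60, limma adjusted p = 0.00431), below the fold criterion. Scaled to pan-sensory-neuron genes, the difference from DP shrank to -0.17 and that from DN to 0.22.

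Ano8 (Entrez 382014, chromosome 8, 71476436 to 71486067) was at 2.37 and 2.82 RPKM in DP, 1.89 and 2.29 in C-LTMR, with 2.15 and 1.21 in DN. C-LTMR and DN overlapped, and DP lay just above both. None of its differences was called, with limma adjusted p = 0.461 for DP against C-LTMR (95% confidence interval of the log2 fold change -0.34 to 0.95), 0.0782 for DP against DN (0.64, interval -0.00056 to 1.29) and 0.312 for C-LTMR against DN (interval -0.30 to 0.99). The DN libraries decide the second: without DN replicate 1 it was called (1.03, adjusted p = 0.0122), and without DN replicate 2 it was 0.26. In GENCODE, Ano8 shares 80 exonic bases with Dda1 on the opposite strand, which was at 55.2 to 86.3 RPKM. The deposited coordinates of these 2 genes do not overlap, as Dda1 ends at 71476018.

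The remaining members were at the edge of detection. Ano5 (Entrez 233246, chromosome 7, 51511029 to 51598709), known from inherited muscle disease, was at 0.0183 and 0.0131 RPKM in DP, 0.0375 and 0.0731 in C-LTMR, with 0.0329 and 0.0239 in DN, or about 3.7 to 20.5 reads. Its C-LTMR libraries were the highest, and none of its differences was called in the fit without a filter (limma adjusted p = 0.149 to 0.489). Ano7 (Entrez 404545, chromosome 1, 93373896 to 93403502) was between 0.00811 and 0.0293 in every library, about 1.2 to 4.2 reads. Ano9 (Entrez 71345, chromosome 7, 141101219 to 141117806) was at 0 in 5 libraries and at 0.0206 RPKM, about 2.2 reads, in DN replicate 2, under its 3-read level of 0.0276. These read numbers are estimates and speak to counting error only.

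In the order of mean levels, DP ran from Ano10 through Ano3, Ano6, Ano4 and Ano8 to Ano2 and Ano1. Of these neighbours, Ano4 and Ano8, and Ano2 and Ano1, overlapped between libraries. In C-LTMR the order was Ano6, Ano10, Ano4, Ano3, Ano8, Ano2 and Ano1, and none of these neighbours overlapped. In DN it was Ano10, Ano6, Ano8, Ano1, Ano4 and Ano3, where Ano1 and Ano4, and Ano4 and Ano3, overlapped.

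The called members are read here against the share of all genes called. Of the 10 anoctamins, 6 passed the filter on low values, and Ano1 passed it through DN alone. Between DP and C-LTMR 3 of these 6 were called, 1 higher in DP (Ano3) and 2 lower (Ano4, Ano6), where 15.1% of all 15004 genes tested were called. Between DP and DN 3 were called, 2 higher in DP (Ano3, Ano4) and 1 lower (Ano1), against 32.9% of all genes. Between C-LTMR and DN 4 were called, 3 higher (Ano3, Ano4, Ano6) and 1 lower (Ano1), against 31.7%. Median log2 fold changes of the 6 were -0.15, 0.32 and 1.39 in these comparisons, beside -0.048, -0.19 and -0.090 over all genes. At an adjusted p under 0.05 and any fold, the members counted were 4 (Ano10 joining) of 6 against 29% of all genes, 4 (Ano6 joining) against 59.6%, and 5 (Ano10 joining) against 57.8%. The comparisons share libraries and are not independent of each other. Scaling to pan-sensory-neuron genes moved the median of all genes between DP and C-LTMR from -0.048 to 0.35 and the share of calls that were higher in DP from 43.3% to 66.6%, and it moved the share higher in C-LTMR against DN from 27.2% to 16.6%, while the directions of the called anoctamins were kept.

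Other chloride channels and transporters, which set the chloride gradient and carry other anion currents, differed little in number between the GINIP+ subsets. In this and the next lists, genes given as higher or lower were called by limma. Of 31 tested chloride genes, 1 was higher in DP than in C-LTMR and 2 were lower, where 6.54% and 8.56% of all genes were. The potassium-chloride cotransporter gene Slc12a7 was at 1.34 ± 0.249 RPKM in DP, 16.6 ± 2.42 in C-LTMR, with 3.59 ± 0.506 in DN. The bestrophin gene Best1 was also lower in DP (0.537 ± 0.0332) than in C-LTMR (3.199 ± 0.286). Lrrc8b, for a subunit of volume-regulated anion channels, was higher in DP (1.13 ± 0.0584) than in C-LTMR (0.196 ± 0.000615). Against DN, 1 was higher and 14 were lower in DP, and 2 were higher and 11 lower in C-LTMR, where the shares of all genes were 7.78% and 25.1%, then 8.64% and 23.1%. Clic4, for an intracellular chloride channel protein, was among those higher in DN (91.0 ± 41.2, against 8.34 ± 1.22 in DP and 5.45 ± 2.48 in C-LTMR). Glial and vascular markers moved the same way, and their part in this was not tested. Slc12a2, for the inward chloride transporter of sensory neurons, was chosen after its values were seen; it stood at 24.2 ± 5.54 in DP, 21.6 ± 2.89 in C-LTMR, with 35.3 ± 14.6 in DN and was not called in any comparison.

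Genes for calcium release and entry, the step before calcium-activated channels open, went in both directions. Of 31 tested, 7 were higher in DP than in C-LTMR and 3 lower, where 6.54% and 8.56% of all genes were. Trpc6, for a receptor-operated cation channel, was at 20.6 ± 0.603 RPKM in DP and 3.56 ± 0.519 in C-LTMR. Gna14, for a Gq-class G protein, was likewise higher in DP (105 ± 6.08 against 23.2 ± 3.85). The phospholipase gene Plcb1 (0.950 ± 0.168 against 3.62 ± 0.223) and the bradykinin receptor gene Bdkrb2 (0.0148 ± 0.000983 against 0.159 ± 0.0427) were lower in DP. Bdkrb2 only just passed the filter, at a mean of 0.1001 RPKM over all libraries. Its DP level was under the 0.1 added before the log, so its fold change depends on that constant. Against DN, 8 were higher and 6 lower in DP (7.78% and 25.1% of all genes), and 5 were higher and 5 lower in C-LTMR (8.64% and 23.1%). The list's median log2 fold changes were 0.12, 0.027 and 0.0082 for DP against C-LTMR, DP against DN and C-LTMR against DN, beside -0.048, -0.19 and -0.090 over all genes. Jph2, for a junctophilin that ties the endoplasmic reticulum to the plasma membrane, was higher in DP (2.81 ± 0.163) and C-LTMR (4.59 ± 0.171) than in DN (0.305 ± 0.0747). Itpr3, for an inositol trisphosphate receptor, was higher in DN (4.97 ± 1.61) than in DP (0.542 ± 0.144) and C-LTMR (0.403 ± 0.156), as was Ano1.

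Other lipid scramblases, and the flippases that work against them, gave 2 higher and 4 lower of 25 tested in DP against C-LTMR (6.54% and 8.56% of all genes). In DP against DN 0 were higher and 9 lower (7.78% and 25.1%), and in C-LTMR against DN 2 were higher and 8 lower (8.64% and 23.1%). Medians were 0.052, -0.22 and -0.30 in these comparisons. The flippase gene Atp11a had its highest level where Ano6 did, at 27.2 ± 1.27 RPKM in C-LTMR, against 2.57 ± 0.409 in DP and 13.5 ± 2.30 in DN. Atp8a1 (47.5 ± 0.723 against 21.9 ± 0.239) and Xk (2.18 ± 0.292 against 0.392 ± 0.0599) were higher in DP than in C-LTMR. Plscr1, for a phospholipid scramblase, was higher in DN (16.7 ± 7.10) than in DP (1.04 ± 0.136) and C-LTMR (1.21 ± 0.415). The TMEM63 and TMC proteins are related to anoctamins in fold, and of their 8 tested genes 2 were higher and 2 lower in DP against C-LTMR (6.54% and 8.56% of all genes). Tmem63a (16.8 ± 0.737 against 5.66 ± 0.285) and Tmem63c (14.0 ± 0.493 against 4.94 ± 0.216) were the higher pair. Tmem63b was lower in DP (43.2 ± 1.42 against 89.9 ± 6.09), as was Tmc7, which stood at 1.03 ± 0.0775, 2.77 ± 0.288 and 9.997 ± 1.22 in DP, C-LTMR and DN. Against DN, 2 of the 8 were higher and 2 lower in DP (7.78% and 25.1% of all genes), and 1 was higher and 2 were lower in C-LTMR (8.64% and 23.1%). With 8 genes, each such count rests on 1 or 2 genes.

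Genes with the most similar profiles were sought for the 3 anoctamins with the widest range, as the smallest distance between centred log2 profiles over 6 libraries among 15003 genes. Ano3 was nearest to Ascl4 (distance 0.273), Slc5a11 (0.485) and Kcnab1 (0.545), a potassium channel subunit gene with mean RPKM of 109.6 in DP, 46.1 in C-LTMR, then 7.33 in DN. Ano4 was nearest to Ccdc74a (0.368), Tmem132e (0.376) and Crhbp (0.453). Ano6 was nearest to Cdh26 (0.358), Tes (0.429), a focal adhesion gene with mean RPKM of 2.915, 23.97 and 5.095 in the same order, and Depdc7 (0.443). Some of these genes had means under the 0.1 RPKM added before the log, so their distances depend on that constant. These were Cdh26 in DP (0.0255) and DN (0.0813), and Crhbp (0.0153) and Slc5a11 (0.0890) in DN. The points share libraries and depth, so these are descriptions only.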

How the data were processed

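RNA of 6 libraries (2 each of DP, C-LTMR and DN) was analysed from the deposited tables, with 0 columns left unmapped. The authors deposited RPKM values of 23029 genes, and a TMM-normalized signal (normalized counts on a common library size, not whole numbers) of 6620 genes, 4 of them anoctamins. Per the submitters' processing notes, CASAVA 1.8.2, edgeR 2.6.2 and build GRCm38 (mm10) were used; the aligner, annotation and strand setting were not given in the sources used here. RPKM was taken as log2(RPKM + 0.1), and genes with a mean of at least 0.1 over 6 libraries were tested (15004). The 6 libraries were fitted together with limma 3.58.1 under R 4.3.3 (eBayes with trend; 3 residual and a median of 3.69 prior degrees of freedom), which was checked on simulated data. To be called, a gene needed a BH-adjusted p under 0.05 and a log2 fold change of 1 or more in size. Symbols, Entrez IDs and coordinates are as the files give them; start sites and promoter windows are from RefSeq (GRCm38.p6), and exon overlaps and transcript lengths from GENCODE M21, of the same build. Read equivalents are RPKM times transcript length times the estimated common library size.

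The anoctamins and all gene lists were chosen with earlier results of these data known. The text names all 10 anoctamins, the sort markers, and up to 2 called genes per list, direction and comparison with the largest fold change. It also names the 3 genes nearest in profile to each of the 3 anoctamins with the widest range. Slc12a2, Muc15, Dda1, A130051J06Rik and Gm49172 lie outside this rule. Alternatives were another pseudocount, no filter or a stricter one, 2 scalings, the TMM-normalized table, a replicate block, only the compared libraries, and leaving out each library. Python 3.11.15, numpy 2.4.6, pandas 2.3.3 and matplotlib 3.10.9 were used for tables and plots. A result that names a withheld item is not reported here.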

Additional observations from a re-analysis of the deposited data

How the results depend on the processing

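Calls of Ano3, Ano4 and Ano6 in the report held under all 14 alternatives run, with log2 fold changes without 1 library of 1.23 to 1.54, -1.74 to -1.45 and -3.01 to -2.77 for DP against C-LTMR. The number of genes called over the whole table moved by more than 1.5 times with a pseudocount of 1 (1194 for DP against C-LTMR, 3140 for DP against DN and 3013 for C-LTMR against DN), in the TMM-normalized table (843, 1645 and 1562, with fewer genes tested) and with a mean RPKM of at least 1 (3243 and 3059 in the comparisons with DN, of 11613 genes tested). Without 1 library it ran from 1847 to 2269, 4666 to 5103 and 4409 to 5021. The number of anoctamins called without 1 library was 3, then 2 to 4, then 4. Uncalled differences changed sign for Ano1 in DP against C-LTMR (-0.19 to 0.82 without 1 library), for Ano10 in DP against DN (-0.0073 in the TMM-normalized table, -0.13 to 0.13 without 1 library) and for Ano8 in C-LTMR against DN (-0.019 scaled to pan-sensory-neuron genes, -0.042 to 0.73 without 1 library); the cause was not tested. Replicate numbers do not mark a shared animal in the labels, and differences between replicates correlated at 0.301, 0.096 and 0.237 between subsets. With the replicate block, 2341, 4981 and 4782 genes were called and no call of an anoctamin changed. Depth limits Ano1, Ano2, Ano5, Ano7 and Ano9, which rest on few reads in at least 1 subset.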
